A study of Sus scrofa with 10 samples.

Results

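The genes that write, keep and remove DNA methylation were followed in pig morulae, the cleavage embryos in which blastomeres compact before the blastocyst forms. Members were chosen by name from the deposited tables: DNMT1, DNMT3A, DNMT3B, UHRF1, TET1, TET2, TET3, TDG, TRIM28 and DPPA3. Of these 10 names, 9 had a row among the 24358 genes listed, with 33 of the 47421 isoforms listed. DPPA3 had no row under its name, and no listed gene overlaps the position RefSeq gives it on Sscrofa11.1 (chromosome 5, 62861492 to 62868131), so its level was not analysed here. The 10 libraries came from matured oocytes that received a small interfering RNA (siRNA) by injection, were activated parthenogenetically (without sperm) and grew in culture to the morula. In the 5 DDB1_KD libraries the siRNA was directed against DDB1, and in the 5 NC libraries it was a non-specific one. Both groups thus share the injection and the absence of a paternal genome, and the labels give no age, strain or number of embryos per library. The labels do not tell whether the libraries within a group are from separate cultures, so p-values reflect how these libraries vary, and some of that variation may be technical.

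DNMT1 copies methyl groups to the new DNA strand after replication, and UHRF1 brings it to half-methylated sites. DNMT3A and DNMT3B add methyl groups to unmethylated sites, TET1, TET2 and TET3 oxidise methylcytosine, and TDG, thymine DNA glycosylase, cuts the later oxidation products out so that base excision repair can put back plain cytosine. TRIM28 is a corepressor that keeps heterochromatin and imprinted marks, and DPPA3 protects methylation in the zygote. Preimplantation embryos lose much of their methylation during cleavage, and oocytes store RNA of several of these genes. DDB1 is the adaptor of CUL4 ubiquitin ligases, which are known to modify TET proteins through the receptor DCAF1 and to mark TDG for destruction through the receptor DTL. Those links concern proteins, whereas RNA was measured here.

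Libraries held 32466912 to 50911295 estimated counts over 13522 to 14755 genes. DDB1, the target of the siRNA, had 0.92 to 1.55 FPKM (fragments per kilobase of transcript, scaled to the depth of the library) in DDB1_KD and 2.53 to 4.44 FPKM in NC, without overlap. Its fitted log2 fold change was -1.39 (SE 0.28), with an exact two-sided permutation p of 0.00794 over 252 assignments, the smallest that 5 against 5 allows. Over all genes its adjusted p was 0.977 with edgeR's quasi-likelihood test and 0.0069 with DESeq2. Early embryo markers summed to 77.3 to 217 FPKM over 8 genes in DDB1_KD and 107 to 207 FPKM in NC. Markers of other cells were low: 8 cumulus cell genes summed to 1.33 to 3.29 FPKM with FSHR at 0 in every library, 7 fibroblast genes to 0.0863 to 1.53 FPKM, and 6 blood cell genes to 1.59 to 11.4 FPKM. DDB1_KD replicate 2 had the lowest TET1 and trophectoderm marker levels and the highest maternal transcript mean of the 10 libraries. Of 8 tested trophectoderm markers 7 had a lower fitted value in DDB1_KD (median log2 fold change -1.11, and -0.79 without that library), and none passed. The part of these markers in the group differences that follow was not tested.

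Among the methylation genes none passed the test between DDB1_KD and NC. Of the 9 with a row, 6 had a mean of at least 1 FPKM over the 10 libraries and were tested: DNMT1, DNMT3A, TET1, TET2, TDG and TRIM28. UHRF1, DNMT3B and TET3 were under that level. None of the 6 passed edgeR's quasi-likelihood test (adjusted p 0.977 to 0.98), against 0% of the 8476 genes tested. At an unadjusted p under 0.05 there were 0 of the 6, against 2.91% of all genes, and DESeq2 passed 0 of the 6, against 0.0236%. In 0 of the 6 were the groups free of overlap, against 0.413% of all genes. DNMT1 and DNMT3A had a higher fitted value in DDB1_KD and the other 4 a lower one, with a median log2 fold change of -0.16 beside 0.00 over all genes.

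**Figure D1:**
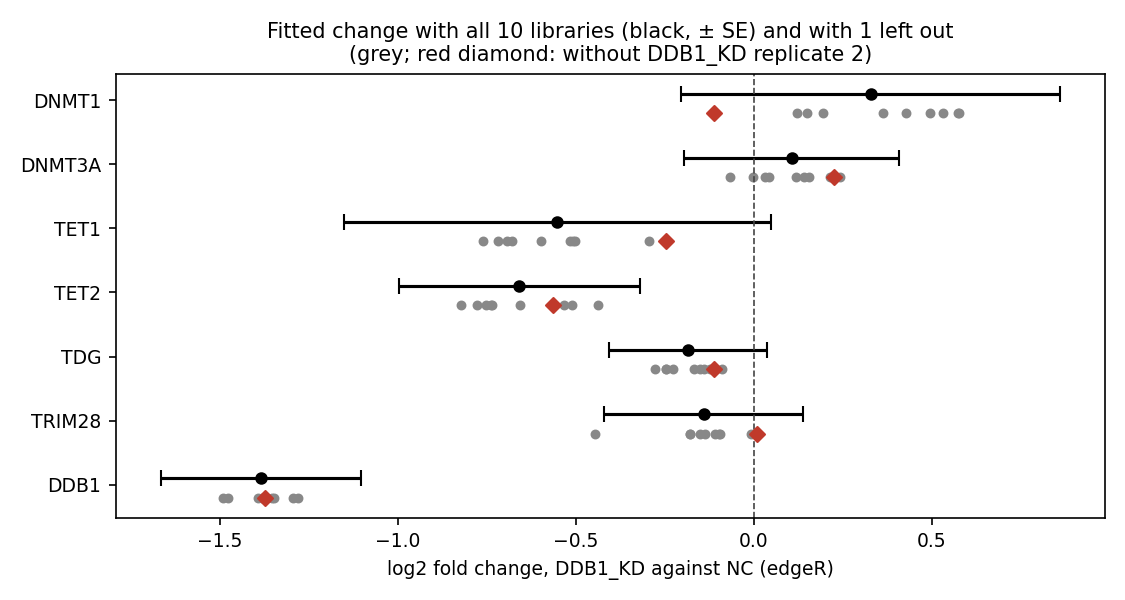
Fitted log2 fold change of the 6 tested methylation genes and of DDB1, DDB1_KD against NC, with all 10 libraries (black point, bar SE) and with 1 library left out (grey points, red diamond without DDB1_KD replicate 2). DDB1 stays between -1.49 and -1.28, TET2 between -0.82 and -0.44, and DNMT1 changes sign without DDB1_KD replicate 2.

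DNMT1, the maintenance methyltransferase, varied several-fold within each group. The gene (ENSSSCG00000013659) lies on chromosome 2 from 68981566 to 69029855 on the minus strand of susScr11, with 6 listed isoforms. Its level in DDB1_KD replicates 1 to 5 was 10.2, 76.1, 46.2, 19.96 and 24.4 FPKM. In NC replicates 1 to 5 it was 45.6, 28.1, 44.1, 11.9 and 11.4 FPKM. DDB1_KD replicates 2 and 3 lay above every NC library, replicate 1 lay below every one, and the groups overlapped. The mean of DDB1_KD was 35.4 ± 26.3 FPKM and that of NC 28.2 ± 16.6 FPKM (SD, n = 5 each). The log2 fold change was 0.33 (SE 0.53). Without DDB1_KD replicate 2, the library with the highest level, it was -0.11.

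UHRF1, the partner that recruits DNMT1, was close to the detection limit. The gene (ENSSSCG00000013517; chromosome 2, 73897310 to 73931916, minus strand) had 26, 69, 46, 8 and 54 counts in DDB1_KD replicates 1 to 5 and 64, 35, 36, 49 and 8 in NC replicates 1 to 5. That is 0.0427 to 0.309 FPKM in DDB1_KD and 0.0299 to 0.35 FPKM in NC, with a low library in each group and overlapping ranges. Its relative UHRF2 averaged 18.8 ± 17.9 FPKM with the DDB1 siRNA and 16.9 ± 10.1 FPKM with the non-specific one (SD, n = 5 each), a wide spread in both groups.

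DNMT1 isoform estimates changed between libraries more than between groups. ENSSSCT00000014923 (39 exons, 5227 bases) and ENSSSCT00000061264 (41 exons, 5590 bases) carried most of the isoform FPKM of DNMT1, 41.6% and 39.7% over all libraries. The first had 12.3, 68.5, 3.22, 17.5 and 29.3 FPKM in DDB1_KD replicates 1 to 5, and 0, 30.9, 47.6, 12.1 and 0 FPKM in NC replicates 1 to 5. In the 2 NC libraries where it was listed at 0, ENSSSCT00000040931 (39 exons, 5441 bases) appeared at 8.02 and 1.24 FPKM, and that isoform was at 0 in the other 8 libraries. ENSSSCT00000061264 was present in every library, at 17.002% to 62.4% of the isoform FPKM in DDB1_KD and 26.3% to 53.8% in NC. ENSSSCT00000055180 held 30.3% and 32.5% in NC replicates 1 and 5 and 33.1% in DDB1_KD replicate 3, the libraries in which the first isoform was lowest, and 2.81% to 10.7% elsewhere. Estimates of isoforms that share most exons are uncertain, and how the reads were split among them was not tested.

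**Figure D2:**
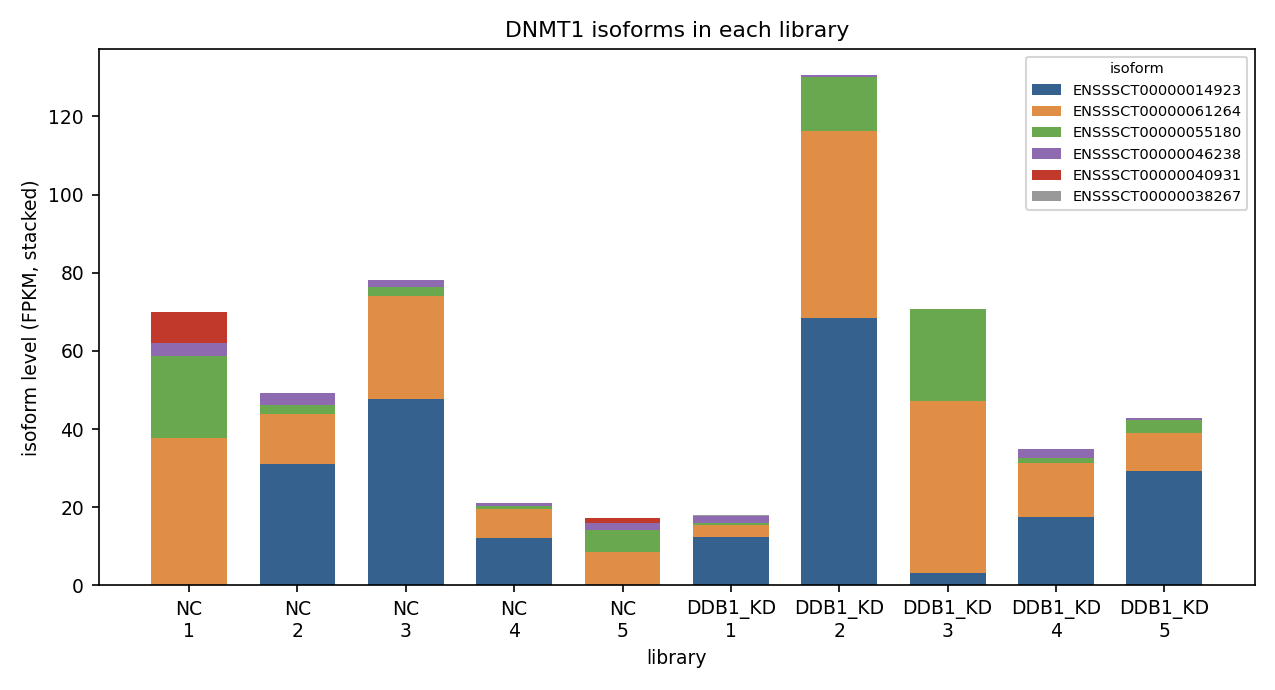
Stacked isoform levels of DNMT1 (FPKM) in the 5 NC and 5 DDB1_KD libraries, 1 colour per isoform. ENSSSCT00000014923 (blue) is absent from NC replicates 1 and 5 and at 3.22 FPKM in DDB1_KD replicate 3, while ENSSSCT00000061264 (orange) is present in all 10 libraries.

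The isoform tests gave no call for these genes. Of the 33 member isoforms 9 had a mean of at least 1 FPKM, and 0 of the 9 passed edgeR's test over isoforms (adjusted p 0.9997 for each), against 0% of 11250 isoforms tested and 2.83% at an unadjusted p under 0.05, where there were 0 of the 9. DNMT1 was the member with more than 1 isoform over that level, namely 4. A test of isoform proportions (edgeR's diffSpliceDGE) gave it an unadjusted p of 0.926 and an adjusted p of 0.9997, against 0.246% of 2031 genes passing.

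DNMT3A, a de novo methyltransferase, was steady beside DNMT1. The gene (ENSSSCG00000029413; chromosome 3, 113502333 to 113609129, plus strand) had 2.53, 1.80, 1.77, 3.42 and 3.54 FPKM in DDB1_KD replicates 1 to 5. The NC libraries had 2.65, 2.56, 3.41, 1.57 and 2.06 FPKM. The groups spanned nearly the same range, and the log2 fold change was 0.11 (SE 0.30), with -0.066 to 0.24 when a library was left out. It was negative without DDB1_KD replicate 5 or NC replicate 4 and highest without NC replicate 3. ENSSSCT00000040572 (23 exons) carried at least 68.7% of the isoform FPKM in 8 libraries. The exceptions were DDB1_KD replicate 5, where it was listed at 0 and ENSSSCT00000022509 held 83.8%, and NC replicate 4, where ENSSSCT00000064647 held 72.6%. Neither of these isoforms exceeded 7.63% in any other library.

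DNMT3B, the other de novo methyltransferase, was listed far lower. The gene (ENSSSCG00000007252; chromosome 17, 36332801 to 36388412, plus strand) had 286, 68, 83, 67 and 129 counts in DDB1_KD and 73, 178, 27, 240 and 44 counts in NC, or 0.0691 to 0.581 FPKM over all libraries. These counts were spread over 7 of its 8 listed isoforms, no one of which had counts in every library. Its model overlaps the neighbouring gene MAPRE1 on the same strand, so reads of that gene cannot be fully told apart from it. DNMT3L, the cofactor without catalytic activity, was listed at 0 in every DDB1_KD library. In NC it averaged 0.142 FPKM with an SD of 0.199 FPKM, larger than the mean. A listed 0 allows up to 3 counts in a library. DNMT3L was named after its values were seen and was not tested, so no group difference is drawn from it.

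TET1, which oxidises methylcytosine, was among the 2 members with the highest levels, and 1 library set it apart. The gene (ENSSSCG00000010241; chromosome 14, 71675671 to 71812694, plus strand; 1 listed isoform of 11 exons) had 53.1, 2.39, 32.99, 49.4 and 55.9 FPKM in DDB1_KD replicates 1 to 5. In NC replicates 1 to 5 it had 65.8, 89.8, 30.3, 60.9 and 39.2 FPKM. DDB1_KD replicate 2 held 679 counts where no other library held fewer than 6903, and the other 4 DDB1_KD libraries lay within the NC range. All 5 DDB1_KD libraries were below the NC median. DDB1_KD averaged 38.8 ± 22.2 FPKM and NC 57.2 ± 23.4 FPKM (SD, n = 5 each), with a log2 fold change of -0.55 (SE 0.60). Without DDB1_KD replicate 2 it was -0.25, and without NC replicate 2, the library with the highest level, -0.29.

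The library with the lowest TET1 level had the highest DNMT1 level. The ratio of DNMT1 to TET1 FPKM, chosen after the values were seen, was 31.8 in DDB1_KD replicate 2 and 0.192 to 1.45 in the other 9 libraries. In the same library 9 trophectoderm markers summed to 52.3 FPKM, with 3 of the 9 at 0, against 108 to 899 FPKM elsewhere. The mean of maternal oocyte transcripts was 5.02 log2 CPM there, the highest of the 10. The part of either in the TET1 value was not tested. In a bulk library, fewer cells with a transcript and less of it per cell cannot be told apart.

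TET2, of the same dioxygenase family, had the smallest p of the 6 members tested. The gene (ENSSSCG00000009157; chromosome 8, 116415272 to 116545514, minus strand) had 0.641, 0.852, 1.06, 1.77 and 1.26 FPKM in DDB1_KD replicates 1 to 5 and 2.33, 2.57, 1.18, 1.21 and 1.45 FPKM in NC. DDB1_KD replicates 1, 2 and 3 lay below every NC library, and replicates 4 and 5 lay within the NC range. DDB1_KD averaged 1.12 ± 0.431 FPKM and NC 1.75 ± 0.653 FPKM (SD, n = 5 each). The log2 fold change was -0.66 (SE 0.34; unadjusted p = 0.0741, adjusted p = 0.977 in edgeR's test), and leaving out each library in turn gave -0.82 to -0.44. The value of -0.44 was the one without NC replicate 2.

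Short isoforms of TET2 were listed in NC libraries only. ENSSSCT00000046452 and ENSSSCT00000038037, of 3 exons each, had 136, 28 and 117 counts and 22, 155 and 114 counts in NC replicates 1, 2 and 5, and 0 in the other 7 libraries. The long isoform ENSSSCT00000010028 (11 exons, 8060 bases) carried all TET2 counts in the 5 DDB1_KD libraries and in NC replicates 3 and 4. Its own log2 fold change was -0.41 (SE 0.37; unadjusted p = 0.3). The short isoforms lie within the span of the long one, and how reads were split among them was not tested. Other members also had isoforms with counts in a single group. ENSSSCT00000041340 of DNMT3B had 236, 8 and 59 counts in DDB1_KD replicates 1, 3 and 5 and 0 in NC. ENSSSCT00000023785 of DNMT3A had 98 and 110 counts in DDB1_KD replicates 2 and 5 and 0 in NC. ENSSSCT00000040931 of DNMT1 was listed in NC alone. How often this occurs over all isoforms was not counted. The short TET2 isoforms were under the level tested. With that level lowered to a mean of 0.1 FPKM, the test of isoform proportions (diffSpliceDGE) gave TET2 an adjusted p of 0.0851. In the same run DNMT3A had 0.102, TRIM28 0.175 and DNMT1 0.358, and each was over the threshold. On simulated data this test made more false calls than its threshold allows.

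TET3, the dioxygenase best known from the oocyte and zygote, was barely listed. The gene (ENSSSCG00000008292; chromosome 3, 68924990 to 68968883, minus strand) had 8, 26 and 8 counts in DDB1_KD replicates 2, 3 and 5, and 14, 18 and 12 counts in NC replicates 1, 2 and 3. In the other 4 libraries no count was listed, which allows up to 3 counts in each, or 0.0113 to 0.0176 FPKM. The deposited model covers 43.2% of the span RefSeq gives TET3, the lowest share among the 9 members, so transcripts outside the model would not be in this value.

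**Figure D3:**
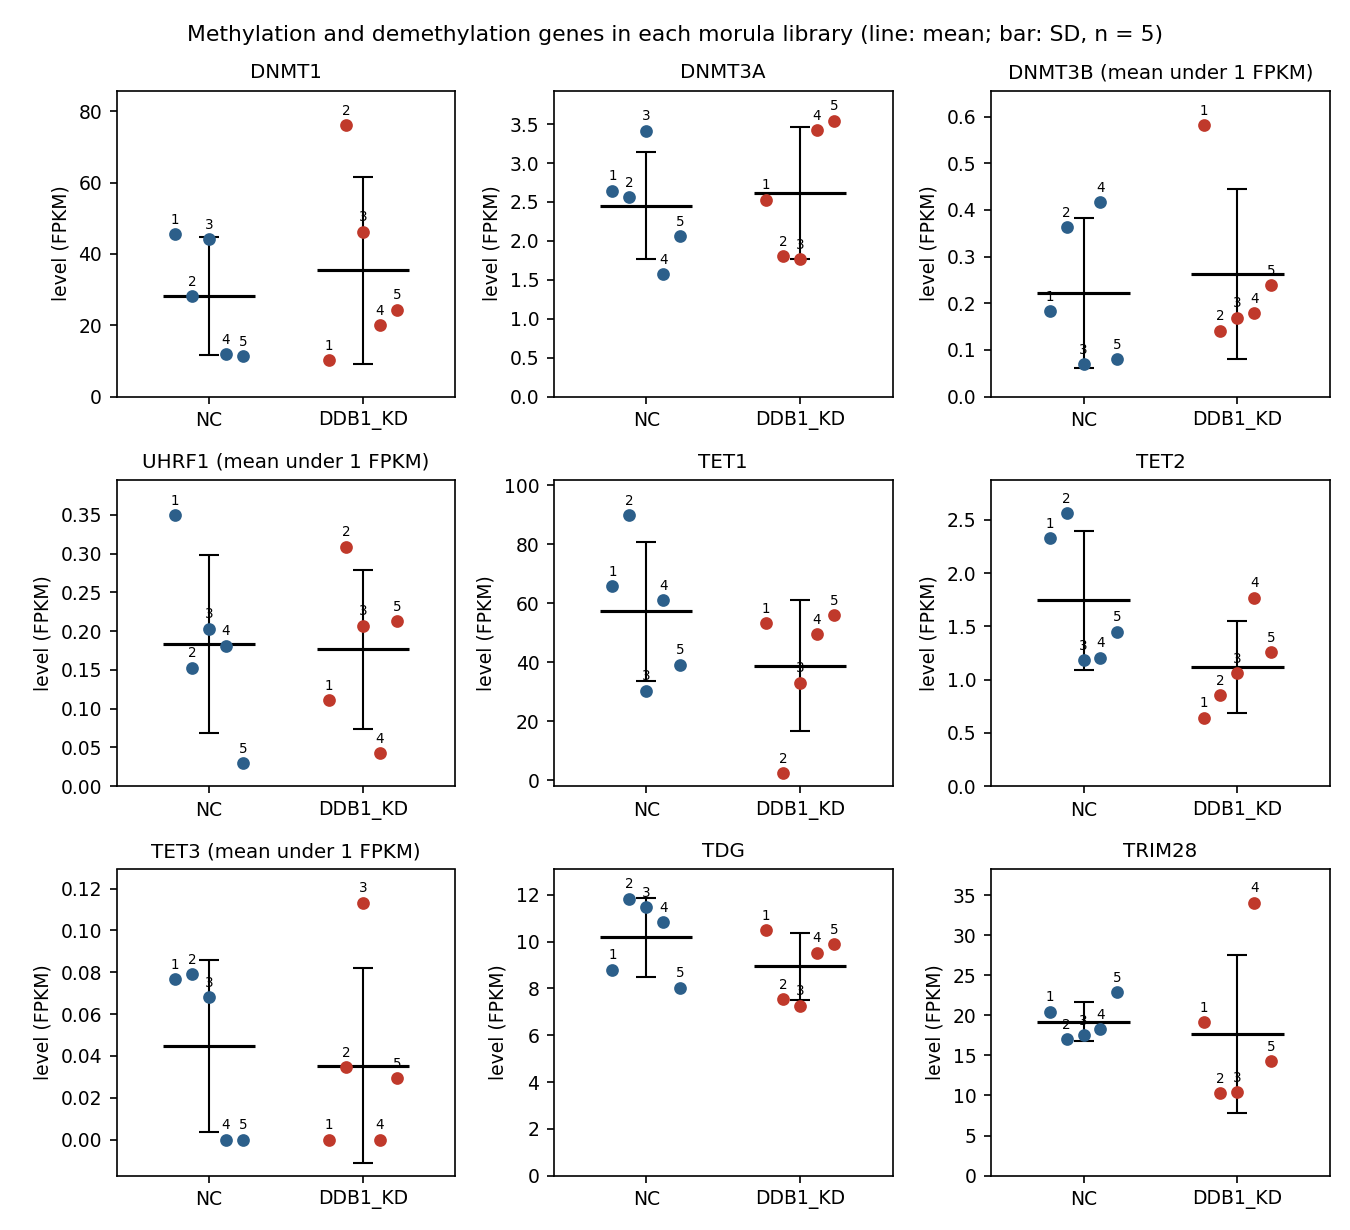
Level (FPKM) of each of the 9 listed methylation genes in the 5 NC (blue) and 5 DDB1_KD (red) libraries, numbered by replicate, with the mean (line) and SD (bar). Every panel shows overlapping groups, and DDB1_KD replicate 2 is the highest for DNMT1 (76.1 FPKM) and the lowest for TET1 (2.39 FPKM).

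TDG, the glycosylase that acts after the TET enzymes, had the lowest coefficient of variation of the 6 tested members among the DDB1_KD libraries (16.2%). The gene (ENSSSCG00000000847; chromosome 5, 80437959 to 80492252, minus strand; 1 listed isoform) had 10.48, 7.54, 7.27, 9.52 and 9.90 FPKM in DDB1_KD replicates 1 to 5. The NC libraries had 8.80, 11.8, 11.5, 10.8 and 8.03 FPKM. The groups overlapped, with DDB1_KD replicates 2 and 3 below every NC library and all 5 below the NC median. The log2 fold change was -0.18 (SE 0.22). Leaving out DDB1_KD replicate 2 gave -0.11, leaving out NC replicate 2 gave -0.090, and leaving out NC replicate 5 gave -0.28. The deposited TDG model overlaps GLT8D2 on the other strand, and no source used here says if reads were counted by strand.

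TRIM28, the corepressor of KRAB zinc finger proteins, was tight in NC and wide in DDB1_KD. The gene (ENSSSCG00000037920; chromosome 6, 63081667 to 63104976, plus strand) had 19.2, 10.3, 10.4, 34.0 and 14.3 FPKM in DDB1_KD replicates 1 to 5 and 20.4, 16.99, 17.5, 18.3 and 22.8 FPKM in NC. DDB1_KD replicates 2, 3 and 5 lay below every NC library and replicate 4 above every one. The SD was 9.86 FPKM in DDB1_KD and 2.42 FPKM in NC (n = 5 each), a difference that was not tested. The log2 fold change of the mean was -0.14 (SE 0.28), and 0.0085 without DDB1_KD replicate 2 and -0.45 without DDB1_KD replicate 4. ENSSSCT00000047862 held 92.8% to 99.9% of its isoform FPKM in every library. The model overlaps A1BG, CHMP2A and UBE2M on the other strand, so its counts may include theirs.

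By level in NC, the order of the 9 genes was TET1, DNMT1, TRIM28, TDG, DNMT3A, TET2, DNMT3B, UHRF1 and TET3. TET1 exceeded DNMT1 in 4 of 5 NC and 3 of 5 DDB1_KD libraries, DNMT1 exceeded TRIM28 in 3 of 5 of each, and the ranges of these neighbours overlapped in both groups. TRIM28 lay above TDG in all 10 libraries, TDG above DNMT3A in all 10, and TET2 above DNMT3B in all 10. For the last 2 of these pairs the ranges were apart in both groups. The ranges of DNMT3A and TET2 overlapped, as did those of DNMT3B and UHRF1 and those of UHRF1 and TET3. DNMT3A exceeded TET2 in 4 of 5 NC and 5 of 5 DDB1_KD libraries, and UHRF1 lay above TET3 in all 10. Deposited gene FPKM divides DNMT1 counts by 9705 bases, more than its longest isoform (7938 bases). The same held for DNMT3A (4871 against 3591 bases), DNMT3B (10912 against 8321), TET2 (9153 against 8060) and TRIM28 (7381 against 6829). It did not hold for TET1 and TDG, so levels of different genes are not on quite the same scale. Summed over isoforms, an alternative chosen after seeing the data, DNMT1 had 47.1 ± 27.7 FPKM in NC and 59.3 ± 44.2 FPKM in DDB1_KD (SD, n = 5 each), and TET1 exceeded it in 3 of 5 libraries of each group.

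DNMT1 went with RNA stored by the oocyte. Over the 10 libraries its log2 CPM correlated with the mean of 17 maternal oocyte transcripts, DNMT1 not among them (Pearson r = 0.886, permutation p = 0.00112, adjusted p = 0.0459 over 8476 genes; Spearman rho = 0.891, permutation p = 0.00115). Of all genes 2.78% passed this test. That share and the adjustment include the 17 transcripts themselves, whose r with their own mean is partly built in. Without DDB1_KD replicates 1 and 2, the libraries farthest from the median, r was 0.80 (n = 8, exact p = 0.021). DDB1_KD had a maternal mean of 3.61 ± 1.49 log2 CPM and NC one of 2.96 ± 0.884 (SD, n = 5 per group), with an exact two-sided permutation p of 0.405. With it as a covariate the DNMT1 log2 fold change between the groups was -0.29 in place of 0.33.

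The other 5 tested members did not pass this test. TRIM28 ran the opposite way (r = -0.705, permutation p = 0.0223, adjusted p = 0.162, and rho = -0.842, permutation p = 0.00364). Its r was -0.664 without the 2 libraries farthest from the median (n = 8, exact p = 0.066). TET1 had r = -0.536 (permutation p = 0.0936, adjusted p = 0.295) and rho = -0.394 (permutation p = 0.263), and r was -0.205 without those libraries. DNMT3A, TET2 and TDG had r of 0.0884, 0.0169 and -0.242 (permutation p = 0.803, 0.962 and 0.49). No correlation was computed within a group of 5 libraries.

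**Figure D4:**
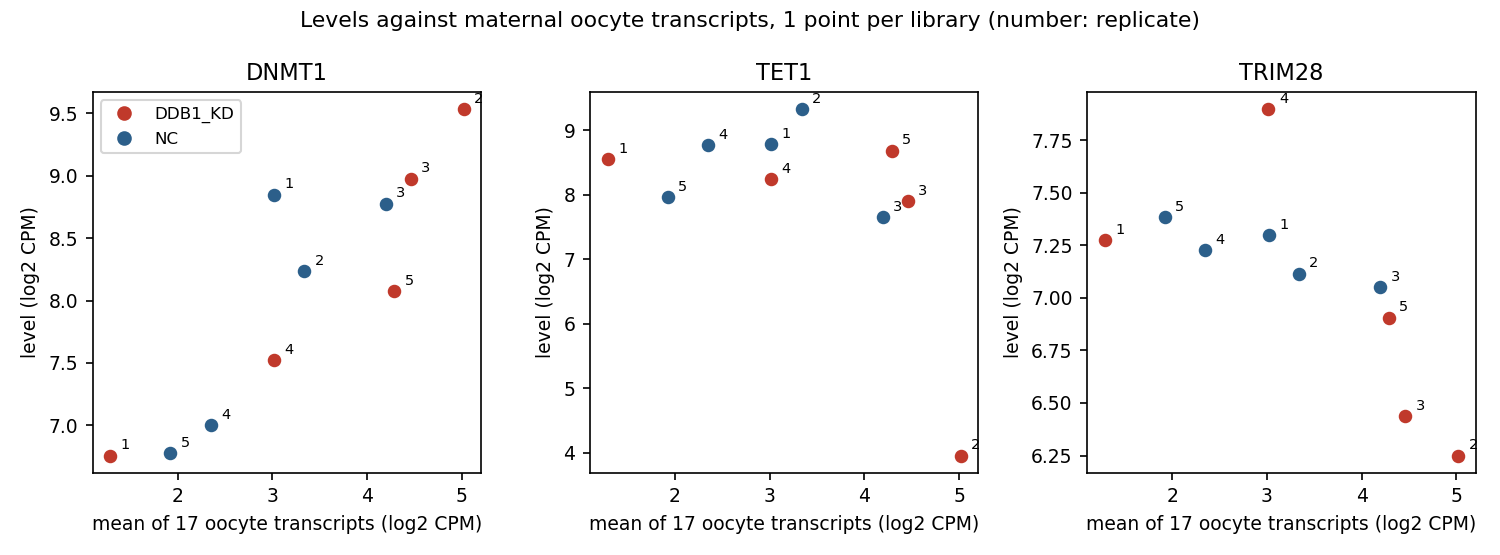
Level of DNMT1, TET1 and TRIM28 (log2 CPM) against the mean of 17 oocyte transcripts (log2 CPM), 1 point per library, DDB1_KD in red and NC in blue, numbered by replicate. DNMT1 climbs with the oocyte transcripts (r = 0.886) and TRIM28 falls (r = -0.705). TET1 is lowest in DDB1_KD replicate 2 (3.96 log2 CPM), and the next lowest is NC replicate 3 (7.65 log2 CPM).

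Genes that work beside the members were described by lists, and none of their tested genes passed edgeR's test over all genes. At an unadjusted p under 0.05 there was 1 of 17 base excision repair partners and 1 of 17 maternal transcripts. The share of all genes under it was 2.91%. Of 7 tested partners of maintenance methylation, 4 had a higher and 3 a lower value in DDB1_KD (median log2 fold change 0.09). Without DDB1_KD replicate 2 the count was 2 of 7 higher, with a median of -0.19, and with the maternal mean as a covariate it was 2 of 7 with -0.032. CDCA7L, a relative of the HELLS partner CDCA7, had 0.85 (SE 0.43), and HELLS, a remodeller needed for methylation of repeats, -0.33 (SE 0.24), or -0.19 without DDB1_KD replicate 2. Of 17 tested genes of base excision repair and demethylation, 9 were higher and 8 lower (median 0.01). SMUG1, a uracil and hydroxymethyluracil glycosylase, had 2.44, 1.06, 0.911, 2.19 and 0.82 FPKM in DDB1_KD replicates 1 to 5 and 3.71, 2.01, 2.78, 3.02 and 5.49 FPKM in NC. DDB1_KD replicates 2, 3 and 5 were below every NC library, and its log2 fold change was -1.19 (SE 0.39; unadjusted p = 0.0101, adjusted p = 0.977). APEX1, the endonuclease that follows the glycosylases, had a log2 fold change of 0.48 (SE 0.22).

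Readers, silencers and the methyl supply gave no call either. Of 9 genes in the list of methyl-CpG readers and their relatives 3 were tested, 1 higher and 2 lower. Among them were ZBTB33 (0.31, SE 0.25) and MBD3 (-0.30, SE 0.51). ZBTB33 was at 0.12 without DDB1_KD replicate 5. MBD3 was at -0.061 without DDB1_KD replicate 2, -0.17 without replicate 3, -0.93 without replicate 4, -0.082 without replicate 5 and -0.12 without NC replicate 5. Of 15 tested genes of TRIM28 heterochromatin and imprint protection, 8 were higher and 7 lower (median 0.01), with the histone methyltransferase EHMT2 at -0.58 (SE 0.40) and the insulator protein CTCF at -0.28 (SE 0.22). EHMT2 was at -0.38 without NC replicate 5 and CTCF at -0.17 without NC replicate 2. Genes that make the methyl donor had 9 of 12 lower values and a median of -0.21. SHMT2, a one-carbon enzyme, was at -0.70 (SE 0.33) and GNMT, which uses up the donor, at 1.02 (SE 0.56), or 0.35 without DDB1_KD replicate 3. The 5 CUL4 ligase genes with known links to TET proteins and TDG lay between -0.42 for CUL4B (SE 0.30) and 0.10 for DTL (SE 0.30). CUL4A was at -0.18 (SE 0.35), RBX1 at -0.064 (SE 0.16) and DCAF1 at -0.041 (SE 0.26), and DCAF1 and DTL were named outside the rule after their values were seen. CUL4B was at -0.23 without DDB1_KD replicate 1. The sign of the other 4 turned when 1 library was left out: CUL4A without DDB1_KD replicate 2, DTL without that library or NC replicate 5, RBX1 without NC replicate 1, and DCAF1 without DDB1_KD replicate 1 or 5 or NC replicate 2.

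Imprinted genes, whose marks the methylation genes keep, were mostly under 1 FPKM in these libraries, all without a paternal genome. The part of that absence in these levels was not tested. Among the 22 with a row, 7 were tested, 2 higher and 5 lower (median -0.32). Without DDB1_KD replicate 2 the median was -0.064, with the maternal mean as a covariate -0.049, and over all libraries left out in turn it ran from -0.50 to -0.045. IMPACT, a translational regulator, was at 0.68 (SE 0.34) and the receptor gene IGF2R at -0.39 (SE 0.25). Whether each listed gene is imprinted in pig was not tested. Of germline genes known to be silenced by promoter methylation, 13 of 13 tested had a fitted log2 fold change over 0, TAF7L by 0.0027 (SE 0.55), with a median of 0.41 beside 0.00 and 50.02% higher over all genes. With upper-quartile scaling 12 of 13 were higher. DDX4, an RNA helicase of germ cells, had 0.92 (SE 0.52) and ASZ1, a piRNA pathway gene, 0.57 (SE 0.40), and without DDB1_KD replicate 3 these were 0.46 and 0.21. The median of the list ran from 0.28 to 0.79 with each library left out in turn. The list holds genes that oocytes also transcribe, and the 17 tested maternal oocyte transcripts likewise had fitted values over 0, with a median of 0.90 (ZP4 2.02, SE 0.66, or 1.30 without DDB1_KD replicate 2; CNOT7 0.60, SE 0.29). Without DDB1_KD replicate 2, 12 of the 13 germline genes were higher (median 0.37), as were 13 of the 17 maternal transcripts (median 0.56). With the maternal mean as a covariate 9 of the 13 germline genes were higher, and their median was 0.24. Over the 10 libraries 12 of the 13 had a positive r with the maternal mean (median 0.55). In that test 1 of the 13 passed, against 2.78% of all genes. The part of stored oocyte RNA in the germline values was not tested.

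**Figure D5:**
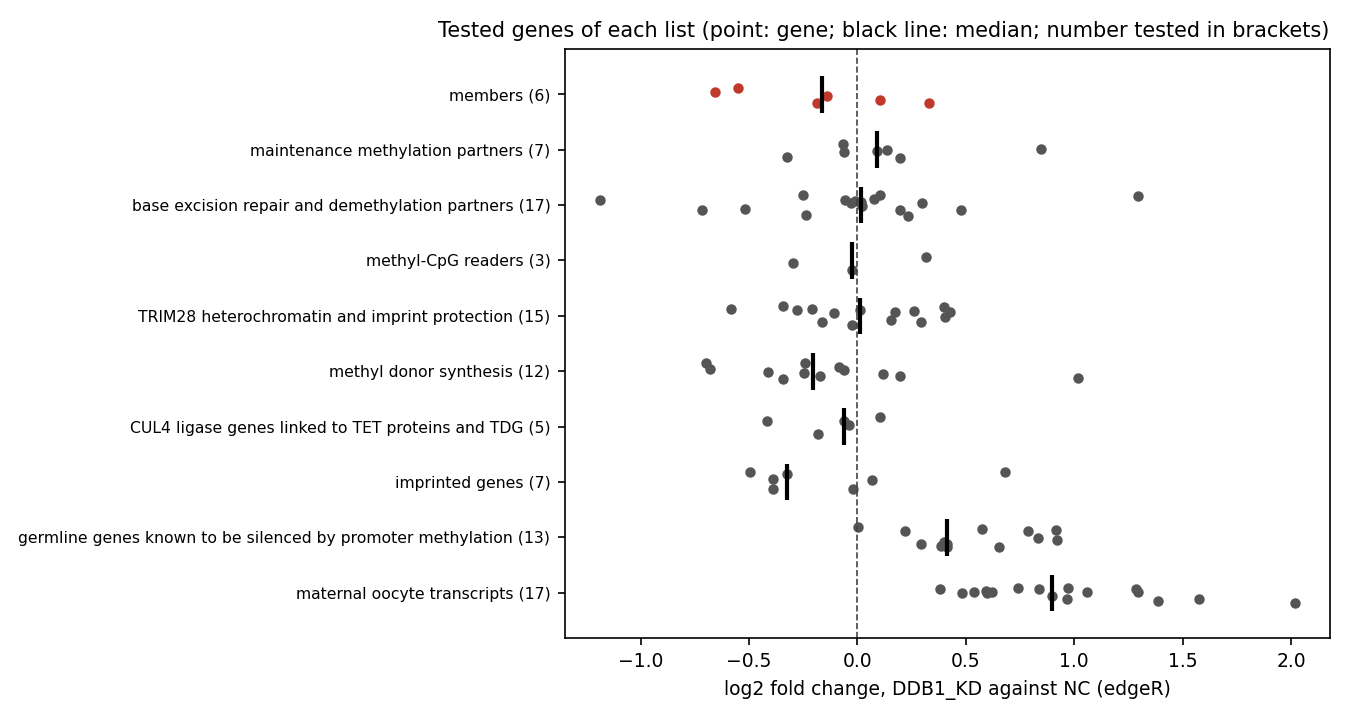
Log2 fold change, DDB1_KD against NC, of each tested gene (point) in the 6 tested methylation genes (red) and in 9 lists, with the median of each (black line). The germline list (13 genes) and the maternal list (17 genes) lie at or above 0, and the other lists lie on both sides of it.

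For the 3 members with the smallest p, the genes with the most similar profile over the 10 libraries were sought by Pearson r of log2 CPM, as a description. TET2 was closest to SMARCA2 (r = 0.963, rho = 0.879) and BZW2 (r = 0.929, rho = 0.952). TET1 was closest to KLF5 (r = 0.976, rho = 0.806) and SCPEP1 (r = 0.966, rho = 0.588), values that share the low library DDB1_KD replicate 2. TDG was closest to CA1 (r = 0.88, rho = 0.879) and to a gene labelled RF00070 (r = 0.852, rho = 0.806).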

How the data were processed

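Per the submitters' processing notes, fastp, HISAT2, HOMER, ChIPseeker, StringTie and edgeR were used with the susScr11 build. Which version of each was run, and for which step, is not stated there. Values in the deposited tables are FPKM and estimated counts, already whole numbers, per gene and isoform (per the file headers). FPKM is 0.0001 wherever the count is 0 and is shown as 0. Deposited gene counts equalled the sum of isoform counts for all 24358 genes. Columns spelled DBB1 were matched to DDB1_KD samples by number. List symbols came from the table for 17451 genes, Ensembl names for 951 and RefSeq names for 719.

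Genes and isoforms with mean FPKM of at least 1 were tested with edgeR 4.0.16 (robust glmQLFit, TMM) in R 4.3.3, group alone, with Benjamini-Hochberg adjustment over all tested and a threshold of 0.05. Each SE was obtained from the coefficient without shrinkage and the square root of its F statistic. Isoform proportions were tested with diffSpliceDGE, which on simulated data made more false calls than its threshold allows. Alternatives used DESeq2 1.42.0 and limma 3.58.1 (log2(FPKM + 1) or log2(FPKM + 0.1)), other scalings and filters, a replicate block, a maternal covariate and each library left out. Log2 CPM used TMM library sizes and added a prior count of 2. Correlations used 100000 resamples. The limit given where no count was listed covers counting error only. Each SE and SD includes variation between libraries.

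The members and lists were chosen with earlier results of these data known. Named are the members, DDB1, up to 3 genes per list with the smallest p, and the 2 most similar genes for 3 members. UHRF2, DNMT3L, FSHR, TAF7L, DCAF1 and DTL are named outside this rule and were chosen after their values were seen.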

Additional observations from a re-analysis of the deposited data

Results flagged for a closer look

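TET1 in DDB1_KD replicate 2 lay far from the other libraries of its group. Its log2 CPM was 3.96, and the other 4 DDB1_KD libraries ran from 7.90 to 8.68. The gap to the nearest of them was 0.835 of the whole range of the group, above Dixon's critical value of 0.71 for 5 samples. Of 16 sets of values checked in this way (6 members, DDB1 and the maternal transcript mean in each group), this was the one over the critical value, and chance flags about 1 in 20.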

How the results depend on the processing

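None of the 6 tested members passed under any alternative run, and genes passing rose from 0 to 2 with DESeq2, where DDB1 was at -1.36 (adjusted p = 0.0069). With the maternal mean as covariate DNMT1 was at -0.29 and DTL at -0.062. When 1 library was left out, DDB1 ranged from -1.49 to -1.28, DNMT1 from -0.11 to 0.58, DNMT3A from -0.066 to 0.24, TRIM28 from -0.45 to 0.0085, CUL4A from -0.38 to 0.0073, RBX1 from -0.15 to 0.021, DCAF1 from -0.18 to 0.21 and DTL from -0.14 to 0.23. Among isoforms, ENSSSCT00000014923 ranged from -0.20 to 1.18, ENSSSCT00000055180 from -0.42 to 1.72, ENSSSCT00000061264 from -0.036 to 0.78, ENSSSCT00000040572 from -0.59 to 0.032 and ENSSSCT00000047862 from -0.40 to 0.034. The causes were not tested. Without the 2 libraries farthest from the median, r with the maternal mean was -0.234 for TET2 and 0.185 for TDG. Replicate numbers are shared by the groups, but the deviations of same-numbered libraries had r of -0.142 to 0.354, and 2 of the 5 pairs were over 0.1, so the numbers were not taken as a pairing. With the replicate block 0 genes passed, DNMT1 was at 0.32, TET1 at -0.65, TET2 at -0.63 and TRIM28 at -0.27. In 2 of 10 cases, both of replicate 3, a library correlated best with its own number. Genes passing for isoform use went from 5 to 37 with the block and to between 1 and 14 when 1 library was left out. Isoforms passing went from 0 to 1 with limma and up to 2 when 1 library was left out. With no filter, UHRF1 was at -0.029 (SE 0.83), DNMT3B at 0.20 (SE 0.63) and TET3 at -0.21 (SE 1.80). These 3 members had at most 286 counts in a library, and their SE was 0.63 or more.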
